A study of Sus scrofa with 6 samples.

Results

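Of 10 listed genes, namely the receptor kinase *KIT*, its ligand *KITLG* and 8 other growth factor receptor kinases, 9 were found by name in the deposited table of 17950 pig genes. They were matched by Ensembl gene name or by the gene names of the study's supplementary tables. *KITLG* was not matched to a row and is not analysed here, so the ligand of KIT cannot be set beside its receptor. The other 9 are *KIT*, *PDGFRA*, *PDGFRB*, *FGFR1*, *FGFR2*, *MET*, *ERBB2*, *EPHA2* and *KDR*, and all 9 had a mean level of at least 1 FPKM. FPKM is the number of fragments scaled to transcript length and to mapped fragments, so levels can be set side by side between genes as a description. Such levels also depend on how complete each gene model of Sscrofa10.2 is, which was not examined here.

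The samples are granulosa cells (GCs), the somatic cells that surround the oocyte, taken from the ovaries of pre-pubertal Landrace gilts. After 24 h of culture the cells were infected for 72 h with lentivirus. The pLVX-*RBP4* group received the pLVX-IRES-ZsGreen vector with the porcine cDNA of retinol binding protein 4 (*RBP4*), and the CTRL group received this vector without *RBP4*, so that ZsGreen and lentiviral infection are common to both. Each group had 3 libraries, but the table holds 1 value per gene and group. The sources used here do not say which promoter drove the insert, how many animals gave cells, or which share of cells was infected. No spread between replicates can be computed, no test between the groups was made here, and every difference below is a difference between a pair of group values. The table gives no read counts, so the depth behind a value is not known from it. *RBP4* had 1.10 FPKM in CTRL and 92.3 FPKM in pLVX-*RBP4* cells, as the labels imply.

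Receptor tyrosine kinases cross the cell membrane once, bind a growth factor outside the cell and phosphorylate each other inside it. Adaptor proteins dock on the phosphorylated tails and pass the signal to the RAS-ERK, PI3K-AKT and phospholipase C pathways, while phosphatases, ubiquitin ligases and Sprouty proteins dampen it. In the ovary, KIT is best known from oocytes and theca cells, which respond to the KIT ligand made by granulosa cells. *KIT* is also a coat colour gene of pigs, at which white breeds often carry duplicated copies. The copy number in these animals was not analysed here, and an FPKM value does not separate copies.

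The study lists a primer pair for *KIT*, shown here because it names the transcript for which a separate assay was designed. Each primer is written from 5′ to 3′ in lower case, with no part marked.
KIT forward primer: gatgagttggccctagacctg
KIT reverse primer: tgccatccacttcacgggta
The forward primer has 21 bases, of which 12 are G or C, and the reverse primer has 20 bases, of which 11 are G or C. The primers were not placed on a genome here.

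*KIT* (ENSSSCG00000008842) had 27.9 FPKM in CTRL and 20.1 FPKM in pLVX-*RBP4* cells, a level 28.0% lower with *RBP4*. On the log2(FPKM + 1) scale, which understates changes of weakly expressed genes, the difference (pLVX-*RBP4* minus CTRL) was -0.46. This was the largest difference among the 9 receptors. The other 8 lay between -0.17 for *KDR* and 0.045 for *MET*, with a median of -0.11, and *KIT* minus *KDR* was -0.28.

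In total, 7 of the 9 receptors were lower and 2 were higher in the pLVX-*RBP4* group, against 49.8% lower and 50.2% higher among the 12382 genes whose mean FPKM reached 1 (the genes tested). The median difference was -0.13 over the 9 receptors and 0.0014 over the 12382 genes. A limit of 0.32 on the log2 scale, a ratio of 5 to 4 in FPKM + 1, was used to count larger differences, since few genes reached 2-fold. *KIT* was the single receptor lower by at least this limit, which 5.31% of the 12382 genes also were. No receptor was higher by at least this limit, against 7.11% of all genes tested, and none differed by at least 2-fold, against 0.953%.

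**Figure D1:**
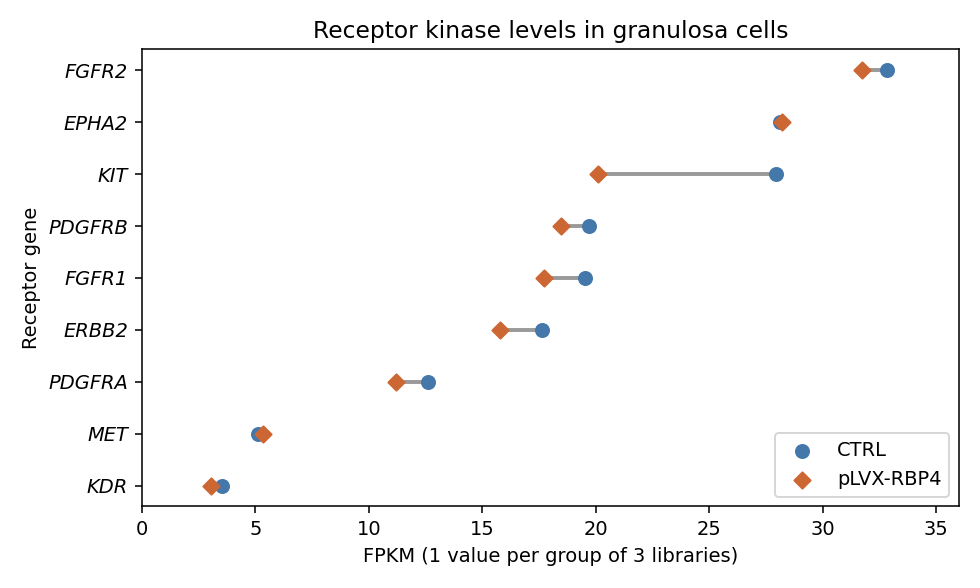
FPKM of the 9 receptor genes (x axis, linear) in the CTRL group (circles) and the pLVX-RBP4 group (diamonds), 1 value per group of 3 libraries and therefore without error bars. The grey line joining the 2 values is longest for KIT, from 27.9 to 20.1 FPKM, and the order of the genes is the same in both groups.

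The order of the 9 levels was the same in both groups. *FGFR2* was first, followed by *EPHA2*, *KIT*, *PDGFRB*, *FGFR1*, *ERBB2*, *PDGFRA*, *MET* and *KDR*. Whether neighbours in this order differ beyond the spread between libraries is not known. In the CTRL group *EPHA2* and *KIT* were almost level, at 28.1 and 27.9 FPKM, while in the pLVX-*RBP4* group *EPHA2* stayed at 28.2 FPKM and *KIT* came closer to *PDGFRB*, which had 18.5 FPKM. Among all 17950 genes, 81.1% had a lower value than *KIT* in CTRL and 75.2% in pLVX-*RBP4* cells. The other receptors ranged from *KDR*, above 43.8% of all genes in CTRL and 42.0% in pLVX-*RBP4* cells, to *FGFR2*, above 83.5% and 82.6%. *KIT* made up 16.7% of the summed FPKM of the 9 receptors in CTRL and 13.3% in pLVX-*RBP4* cells. As deposited, the sum itself was 167.0 and 151.6 FPKM, and *KIT* accounted for 50.8% of this gap. That share depends on how the groups are scaled and was not computed for other scalings.

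Among the 12382 genes tested, 282 (2.28%) had a lower log2 difference than *KIT*. Weakly expressed genes scatter more, so each receptor was also placed among genes within 1.5-fold of its own mean level. Of the 2435 genes at the level of *KIT*, 30 (1.23%) had a lower difference, and 78 (3.20%) were lower by at least the limit. For the other 8 receptors, the share of genes at the same level with a lower difference ran from 19.3% for *PDGFRA* to 62.1% for *MET*. These shares describe the deposited values and are not tests.

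**Figure D2:**
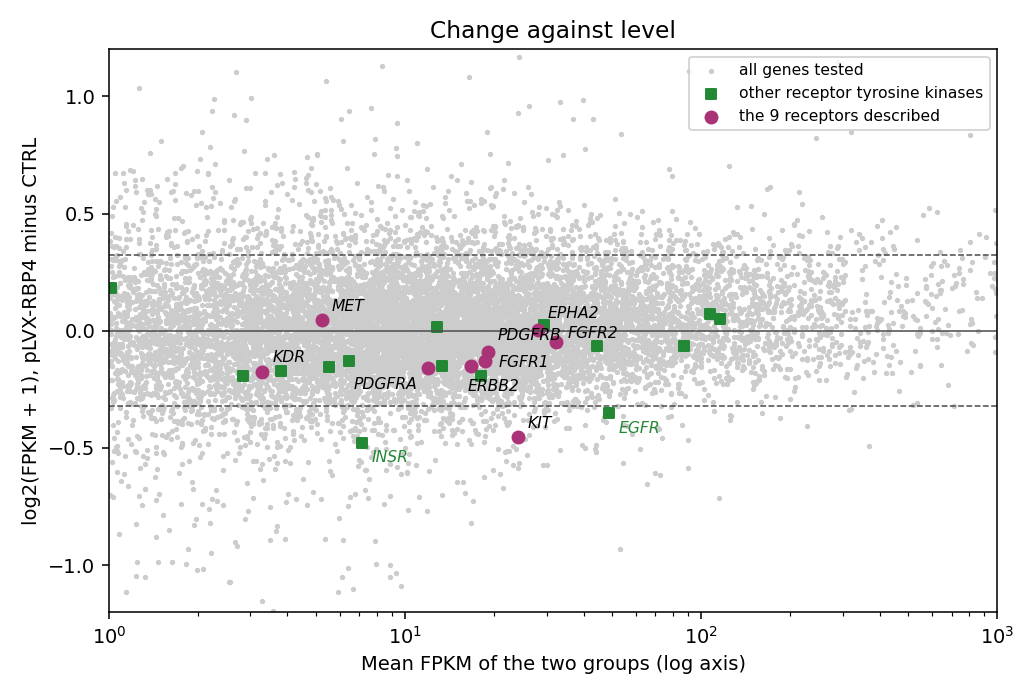
Difference in log2(FPKM + 1), pLVX-RBP4 minus CTRL, against the mean FPKM of the 2 groups (log axis), with the 9 receptors as circles, other receptor tyrosine kinases as squares and the other genes tested as grey points. Dashed lines mark 0.32 above and below 0, and 203 of the 12382 genes lie outside the plotted ranges. KIT is the single circle under the lower line, and INSR and EGFR are the squares under it.

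The other receptors of the KIT family in this set, PDGFRA and PDGFRB, bind platelet-derived growth factors. Both were lower with *RBP4*, by less than *KIT*. *PDGFRA* (ENSSSCG00000008841) had 12.6 FPKM in CTRL and 11.2 FPKM in pLVX-*RBP4* cells, a log2 difference of -0.16. *PDGFRB* (ENSSSCG00000022741) had 19.7 and 18.5 FPKM, a difference of -0.089. *PDGFRB* marks pericytes and *PDGFRA* stromal cells in many tissues.

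*KDR* (ENSSSCG00000008844), the main signalling receptor of vascular endothelial growth factor A, was the weakest of the 9, with 3.55 and 3.03 FPKM. Its difference of -0.17 on the log2(FPKM + 1) scale became -0.23 as a log2 ratio without the added 1. *FGFR1* and *FGFR2* bind fibroblast growth factors. *FGFR1* (ENSSSCG00000015815) had 19.5 FPKM in CTRL and 17.7 FPKM in pLVX-*RBP4* cells (log2 difference -0.13). *FGFR2* (ENSSSCG00000010698), the highest of the 9, had 32.8 and 31.7 FPKM, a difference of -0.047 that changed sign to 0.030 when the groups were scaled to a common sum.

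*ERBB2* (ENSSSCG00000017497), which has no ligand of its own and signals as the partner of other ERBB receptors, had 17.6 and 15.8 FPKM, a log2 difference of -0.15. *EPHA2* (ENSSSCG00000003471), a receptor for ephrins on neighbouring cells, had 28.1 and 28.2 FPKM. Its difference of 0.0048 became negative under 2 of 4 scalings. *MET* (ENSSSCG00000024351), the receptor of hepatocyte growth factor, had 5.13 and 5.32 FPKM, a difference of 0.045 that became negative under 1 scaling. As deposited, these 2 receptors were thus 0.342% and 3.76% above their CTRL level.

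The directions of the smaller differences depended on how the groups were brought to a common scale. As deposited, the summed FPKM was 1129670 in CTRL and 1068960 in pLVX-*RBP4* cells, and a single gene without a symbol held 35.4% and 25.8% of it. Scaling to a common sum moved the median difference of all genes tested from 0.0014 to 0.073, and leaving that gene out of the sum moved it to -0.11. The number of lower receptors was 7 at a common median, 8 at a common upper quartile, 6 at a common sum and 9 at a common sum without the highest gene, while the share of lower genes among all tested was 49.3%, 56.6%, 35.1% and 69.9%. *KIT*, *KDR*, *PDGFRA*, *ERBB2*, *FGFR1* and *PDGFRB* were lower under all 4 scalings. Relative to the median of all genes tested, *KIT* lay between -0.46 and -0.45 and the median of the 9 receptors between -0.14 and -0.13 under these scalings.

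**Figure D3:**
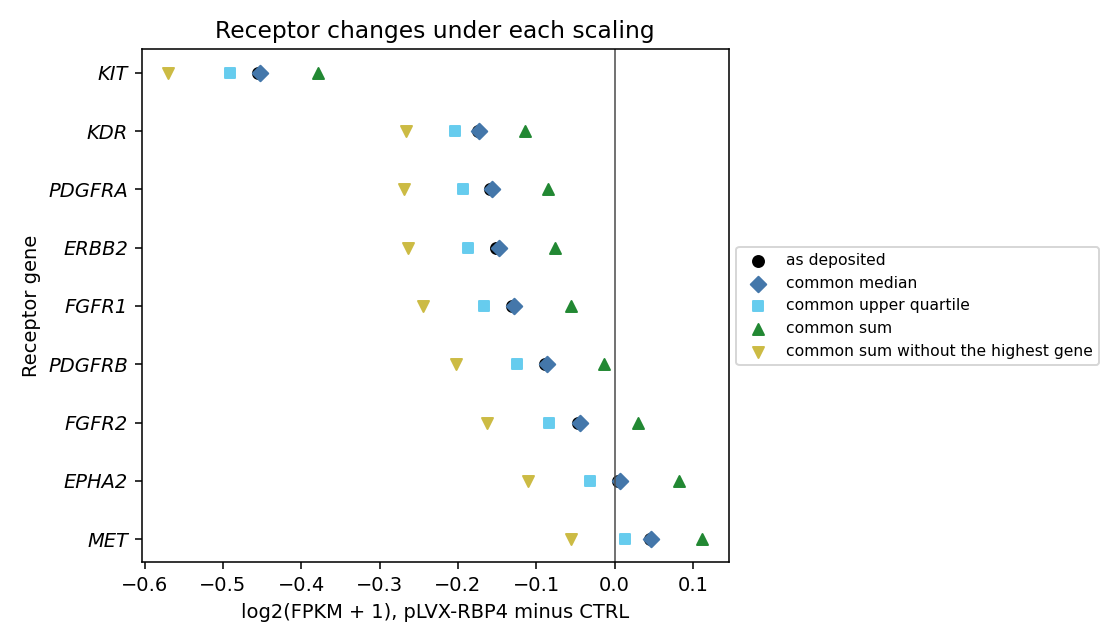
Difference in log2(FPKM + 1), pLVX-RBP4 minus CTRL, of the 9 receptors as deposited (circles) and after each of 4 scalings (other symbols), 1 value per gene and scaling. KIT is leftmost under every scaling, from -0.57 to -0.38, while FGFR2, EPHA2 and MET lie on either side of 0.

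*PDGFRA*, *KIT* and *KDR* are neighbours on the chromosome, in this order, in the RefSeq gene table of Sscrofa11.1, a later build than the Sscrofa10.2 of the deposited values, so no coordinates are given. Of the 7 protein-coding genes on each side of *KIT* in that table, 3 others were found by name, all on the side of *PDGFRA*. They were looked up after the values of *KIT* had been seen. *RASL11B* had 7.54 FPKM in CTRL and 7.58 FPKM in pLVX-*RBP4* cells, *SCFD2* had 10.22 and 8.68 FPKM, and *LNX1* had 0.969 and 0.963 FPKM. Their log2 differences ran from -0.21 for *SCFD2* to 0.0071 for *RASL11B*, each closer to 0 than that of *KIT*. That of *SCFD2* was lower than that of *KDR* (-0.17). *LNX1* had a mean FPKM under 1 and so was not among the genes tested.

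Of the 23 listed ligands of the receptors, *KITLG* included, 14 were found by name and 9 passed a mean FPKM of at least 1, and as deposited 6 of these 9 were lower and 3 were higher with *RBP4*. Under the scalings 5 to 7 were lower, against 49.8% of all genes tested as deposited and 35.1% to 69.9% under the scalings. The median difference of the 9 ligands was -0.049. None passed the limit of 0.32 as deposited, against 5.31% of all genes tested that were lower by it and 7.11% higher. *VEGFA*, which acts on KDR, was the most abundant, with 398.2 FPKM in CTRL and 362.7 FPKM in pLVX-*RBP4* cells (log2 difference -0.13). Its level was 112.1 times that of *KDR* in CTRL and 119.6 times in pLVX-*RBP4* cells. *VEGFC* had 79.4 and 80.0 FPKM, 22.4 and 26.4 times the level of *KDR*. The cells thus held far more transcript of these ligands than of *KDR*, the only receptor they were set against here.

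Ligands of the platelet-derived growth factor receptors went in different directions. *PDGFA* had 13.6 FPKM in CTRL and 17.2 FPKM in pLVX-*RBP4* cells, a difference of 0.31 and the largest among the 9 ligands, which was 0.39 and past the limit at a common sum. The ratio of *PDGFA* to *PDGFRA*, the receptor that it binds, was 1.08 in CTRL and 1.53 in pLVX-*RBP4* cells. *PDGFC* had 89.9 and 88.4 FPKM, with a difference of -0.023 that changed sign at a common sum. *PDGFD*, a ligand of PDGFRB, had 56.2 and 51.6 FPKM (-0.12), and its ratio to *PDGFRB* was 2.85 and 2.80.

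**Figure D4:**
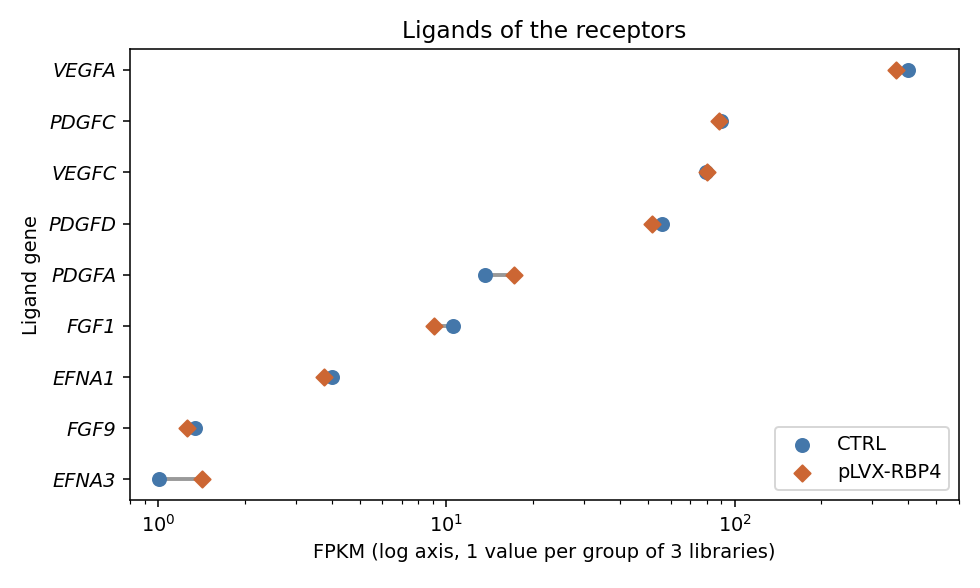
FPKM (log axis) of the 9 ligand genes whose mean FPKM reached 1, in the CTRL group (circles) and the pLVX-RBP4 group (diamonds), 1 value per group and no error bars. VEGFA is highest, with 398.2 and 362.7 FPKM, and the diamonds of PDGFA and EFNA3 lie to the right of their circles.

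The other ligands had lower levels than those of the 9 receptors that they bind. *FGF1*, which binds all FGF receptors, had 10.5 and 9.06 FPKM (log2 difference -0.20), or 0.321 and 0.285 times the level of *FGFR2*. *FGF9* had 1.34 and 1.26 FPKM. Of the ephrins, *EFNA1* had 4.02 FPKM in CTRL and 3.77 FPKM in pLVX-*RBP4* cells, while *EFNA3* had 1.01 and 1.42 FPKM. *HGF*, the ligand of MET, had 0.0488 and 0.127 FPKM, and *NRG1*, which acts through ERBB2 and its partners, had 0.423 and 0.0509 FPKM. *VEGFD* had 0.215 and 0.109 FPKM, and *FGF10* had 0.0696 and 0.0174 FPKM. *FGF18* had 0.0381 FPKM in CTRL cells and a value of 0 in pLVX-*RBP4* cells. At such levels a difference between 2 single values cannot be read.

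Of 46 further receptor tyrosine kinases, 38 were found by name and 15 had a mean FPKM of at least 1. As deposited, 10 of these 15 were lower and 5 were higher with *RBP4*, with a median difference of -0.13. Together with the 9 receptors above, 17 of 24 were lower (70.8%), or 14 at a common sum and 23 at a common sum without the highest gene. Among all genes tested, 49.8% were lower as deposited, 35.1% at a common sum and 69.9% at a common sum without the highest gene. By at least the limit, 5.31% of all genes tested were lower. The insulin receptor *INSR* had 8.47 and 5.80 FPKM, a log2 difference of -0.48, and *EGFR*, the receptor of epidermal growth factor, had 54.8 and 42.7 FPKM (-0.35). With *KIT*, these were the 3 kinases lower by at least the limit as deposited, and *KIT* stood second from the lowest, after *INSR*. At a common sum the difference of *EGFR* was -0.27, short of the limit. *ROR1*, a receptor for Wnt ligands, had 3.09 and 2.57 FPKM (-0.19).

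The kinases with the highest levels had small differences. *PTK7* had 113.4 FPKM in CTRL and 117.4 FPKM in pLVX-*RBP4* cells, *RYK* had 104.4 and 109.7 FPKM, and the collagen receptor *DDR1* had 89.3 and 85.3 FPKM. The differences of 0.050, 0.072 and -0.065 each changed sign under 1 scaling. By level *KIT* was the 9th of the 47 kinases found, in both groups. The 23 kinases below the filter include *EPHA8*, *MUSK* and *IGF1R*, which had a value of 0 in CTRL cells, and *INSRR*, listed at 0 in the pLVX-*RBP4* group, all 4 named after their values were seen. The gene models of Sscrofa10.2 were not examined here, so such a value does not show that these cells lack the transcript.

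Co-receptors bind ligands beside the receptor kinases, and proteases process or release ligands. Of 16 such genes listed, 13 were found and 9 were tested. As deposited, 4 of these 9 were lower and 5 higher, with a median of 0.025, and 3 to 7 were lower under the scalings. For all genes tested, the share lower was 49.8% as deposited and 35.1% to 69.9% under the scalings. By at least the limit, 7.11% of all genes tested were higher. The heparan sulphate proteoglycan *GPC1* had 284.2 and 294.8 FPKM, *SDC1* had 120.8 and 111.6 FPKM, and the protease *FURIN* had 77.9 and 75.7 FPKM. *NRP2*, a co-receptor for vascular endothelial growth factors, had 20.5 and 18.2 FPKM (log2 difference -0.16). The shedding protease *ADAM10* had 17.7 and 19.8 FPKM (0.15), and *MMP9* had 7.93 and 10.199 FPKM, a difference of 0.33 and the single one past the limit as deposited, which was 0.29 at a common upper quartile and 0.22 at a common sum without the highest gene, short of it.

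Of 46 adaptors and signal transducers, 38 were found and 34 were tested. As deposited, 26 of these 34 were lower and 8 were higher, with a median of -0.081, or 18 of 34 lower at a common sum and 33 at a common sum without the highest gene. The single gene past the limit as deposited was *PIK3CD*, a catalytic subunit of PI3K, with 2.004 FPKM in CTRL and 1.30 FPKM in pLVX-*RBP4* cells (log2 difference -0.39). Over all genes tested, 49.8% were lower as deposited, 35.1% at a common sum and 69.9% at a common sum without the highest gene. By at least the limit, 5.31% of them were lower and 7.11% higher as deposited. The adaptor *NCK1* had 16.0 and 19.9 FPKM (0.30, or 0.37 and past the limit at a common sum), and *FRS2*, which links FGF receptors to RAS, had 9.01 and 7.61 FPKM (-0.22). The adaptor *GRB2* had 107.9 and 113.5 FPKM, a difference of 0.072 that became negative at a common sum without the highest gene. The RAF kinase *ARAF* had 113.7 and 100.7 FPKM (-0.17).

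Of 31 negative regulators, 20 were found. Among the 16 whose mean FPKM reached 1, 11 were lower and 5 were higher as deposited, with a median of -0.099, and 9 to 14 were lower under the scalings. The phosphatase *PTPN1*, which acts on several receptor kinases, had 25.6 and 19.3 FPKM, a difference of -0.39 and the single one past the limit as deposited, which was -0.31 and short of it at a common sum. Lower genes made up 49.8% of all genes tested as deposited and 35.1% to 69.9% under the scalings. As deposited, 5.31% of all genes tested were lower by at least the limit. The receptor phosphatase *PTPRJ* had 11.8 and 9.30 FPKM (-0.31), and the ubiquitin ligase *CBLB* had 25.4 and 21.2 FPKM (-0.25). *DUSP4*, a phosphatase of ERK, had 131.6 and 120.9 FPKM, while *SPRY2* had 63.0 and 67.7 FPKM, a difference of 0.10 that became negative at a common sum without the highest gene. *NF1*, which switches RAS off, had 27.8 and 24.1 FPKM (-0.20).

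Genes that respond to ERK activity, 12 found of 16, were lower in 10 of 12 cases as deposited, with a median of -0.12, and in 8 to 12 cases under the scalings. This list shares *DUSP4* and *SPRY2* with the negative regulators. The ETS factor *ETV5* had 3.51 FPKM in CTRL and 2.31 FPKM in pLVX-*RBP4* cells, a difference of -0.45 and the single one past the limit as deposited. *ETV4*, of the same subfamily, had 34.6 and 29.4 FPKM (-0.23). The immediate early gene *EGR1* was the most abundant, with 358.6 and 299.2 FPKM (-0.26), while *JUNB* had 161.6 and 172.4 FPKM (0.093, negative at a common sum without the highest gene). *IER3* had 133.6 and 123.6 FPKM (-0.11). Among all genes tested, 49.8% were lower as deposited and 35.1% to 69.9% under the scalings. By at least the limit, 5.31% of them were lower as deposited.

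**Figure D5:**
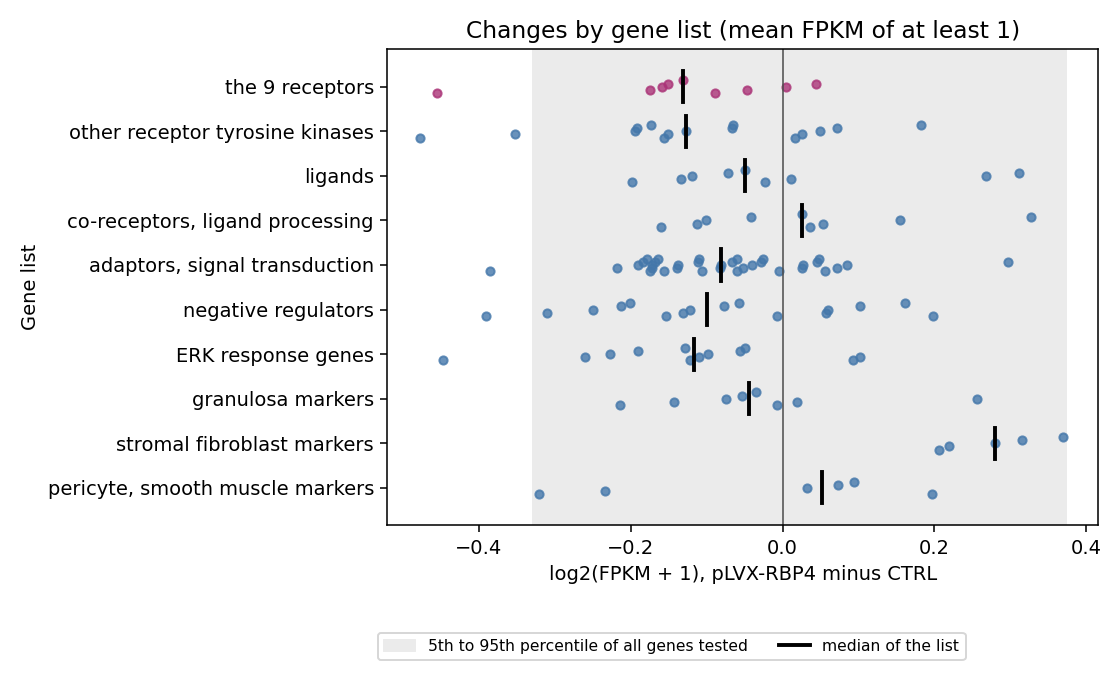
Difference in log2(FPKM + 1), pLVX-RBP4 minus CTRL, of each gene whose mean FPKM reached 1 (points), by gene list, with the median of the list as a black line. The grey band runs from the 5th to the 95th percentile of all 12382 genes tested, -0.33 to 0.37, and KIT is the single point of the top row outside it. All 5 stromal fibroblast markers lie to the right of 0.

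Marker genes of granulosa cells were looked up. Of 16 markers, 8 were found by name, and their summed level was 835.4 FPKM in CTRL and 828.3 FPKM in pLVX-*RBP4* cells. Most of this sum was *CYP11A1*. Those not found include *CYP19A1*, *FOXL2* and *AMH*, so the markers are an incomplete check of the granulosa label. *CYP11A1*, which makes pregnenolone from cholesterol, had 672.9 and 669.4 FPKM, *GATA4* had 59.2 and 57.8 FPKM, and *NR5A1* had 31.1 and 28.1 FPKM. *FSHR*, the receptor of follicle-stimulating hormone, had 9.99 and 8.47 FPKM (log2 difference -0.21), and *FST* had 20.5 and 24.7 FPKM (0.26). As deposited, 6 of the 8 were lower, with 3 at a common sum and 7 at a common upper quartile or at a common sum without the highest gene. Over all genes tested, the share lower was 49.8% as deposited and 35.1%, 56.6% and 69.9% under these scalings, in this order.

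Other cells of the ovary also carry receptors of this set, and in bulk RNA fewer cells of a type and less RNA per cell cannot be told apart. All 5 stromal fibroblast markers found, of 8, were higher with *RBP4* under every scaling, with a summed level of 784.4 FPKM in CTRL and 928.9 FPKM in pLVX-*RBP4* cells. As deposited, 50.2% of all genes tested were higher, and 7.11% were higher by at least the limit. The share of all genes tested that was lower ran from 35.1% at a common sum to 69.9% at a common sum without the highest gene. *COL3A1* had 525.1 and 611.2 FPKM, *DCN* had 168.6 and 210.1 FPKM, and *LUM* had 6.82 and 9.10 FPKM, with log2 differences of 0.22, 0.32 and 0.37. *COL1A2* had a difference of 0.21 and *POSTN* one of 0.28, and *LUM* was the single marker past the limit as deposited, with 0.26 at a common sum without the highest gene. As deposited, *PDGFRA* and *PDGFRB* were lower (-0.16 and -0.089), with differences of -0.086 and -0.013 at a common sum. The 7 of 8 pericyte and smooth muscle markers found summed to 689.6 and 731.2 FPKM, almost all of it *ACTA2* with 644.1 and 687.8 FPKM. In this list *CNN1* had 18.6 and 19.0 FPKM, *NOTCH3* had 15.8 and 13.3 FPKM, *MYH11* had 2.17 and 1.54 FPKM, and *CSPG4* had 1.88 and 2.30 FPKM. The part of stromal cells in the receptor differences was not tested.

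Markers of the cells in which *KIT* is usually abundant had low summed levels, apart from the mast cell list with *HDC*. Of 7 oocyte markers 3 were found, summing to 3.36 and 3.57 FPKM. *GDF9* had nearly all of this sum, *DDX4* was listed at 0 in the CTRL group with 0.0671 FPKM in the pLVX-*RBP4* group, and *NOBOX* was at 0 in both. Of 6 theca markers 4 were found, summing to 2.63 and 2.39 FPKM, with *LHCGR* at 0.209 and 0.0937 FPKM, *GLI1* at 0.495 and 0.350 FPKM and *PTCH1* at 1.93 and 1.66 FPKM. *INSL3*, the remaining one, was at 0 in CTRL cells and had 0.292 FPKM with *RBP4*. Of 5 mast cell markers 2 were found, summing to 119.9 and 131.8 FPKM, nearly all from *HDC* (histidine decarboxylase), and *FCER1A* was at 0 in CTRL cells and had 0.131 FPKM with *RBP4*. Whether any of these cells took part in the difference of *KIT* was not tested.

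For *KDR*, which marks endothelium, 2 of 8 endothelial markers were found. *PECAM1* had 16.3 FPKM in CTRL and 16.0 FPKM in pLVX-*RBP4* cells, and *TIE1* had 0.501 and 0.520 FPKM, a sum of 16.8 and 16.5 FPKM. Leukocyte and erythroid markers were found for 4 of 7 genes and summed to 47.6 and 54.1 FPKM, most of it *CD14* with 42.9 and 48.9 FPKM, while *CD68* had 4.02 and 4.59 FPKM and *CSF1R*, a receptor of the KIT family, had 0.414 and 0.428 FPKM. Surface epithelium markers, 3 of 8, summed to 13.3 and 13.5 FPKM. Of these *KRT8* had 13.0 and 13.2 FPKM, *EPCAM* had 0.325 and 0.199 FPKM, and *KRT18* had 0.0383 and 0.130 FPKM.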

How the data were processed

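RNA of cultured porcine GCs was sequenced in 6 libraries, 3 per group. The study's methods name TopHat2 for the alignment of filtered paired-end reads, with Sscrofa10.2 as the genome, and Cuffdiff (Cufflinks) for the comparison, whose versions and the annotation release are not given in the sources used here. The authors deposited FPKM values, 1 per gene and group, and both value columns were used, with 0 columns left out. Symbols were found for 10757 of 17950 genes, 10489 in a table of Ensembl names and 268 more in the study's supplementary tables.

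Differences were computed as log2(FPKM + 1), pLVX-*RBP4* minus CTRL, for the 12382 genes whose mean FPKM reached 1. The step was run on simulated data with larger changes than that of *KIT* and little noise. This checks the computation and not whether a difference exceeds the spread between libraries. Had values per library been given, limma would have been used. No p-value or standard deviation can be given. The table holds no read counts. Read totals of the libraries, which the study lists and which are larger for pLVX-*RBP4*, were not used here. The 16 gene lists, that of the receptors among them, were chosen with earlier results of these data known. Named genes are the receptors, all ligands found, *RBP4*, and from each other list the 3 highest by mean FPKM and the 3 with the largest absolute difference. One gene that this rule names is not reported here. *INSL3*, 4 kinases listed at 0 and the neighbours of *KIT* were added after their values were seen. The alternatives were other pseudocounts, filters and scalings. Python 3.11.15, numpy 2.4.6, pandas 2.3.3 and matplotlib 3.10.9 were used.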

Additional observations from a re-analysis of the deposited data

How the results depend on the processing

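No paired analysis was possible because the table holds 1 value per gene and group, and for the same reason no library could be left out. Values of *KITLG* were not analysed here, so the planned ratio of *KIT* to *KITLG* was not run. A log2 value counts as moved here from a shift of 0.1 upward, and a count from a change over 1.5 times. The first limit was chosen with the values known. The difference of *KIT* ran from -0.57 to -0.38 over 9 alternatives, among them the log2 ratio with no pseudocount, which was added after seeing the data. The count of lower receptors ran from 6 to 9 and that of receptors lower by at least 0.32 was 1 under each of these alternatives. With a mean FPKM of at least 5, *KDR* is no longer among the receptors tested.

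Scaling to a common sum without the highest gene moved the medians of most lists, since it lowers every pLVX-*RBP4* value against CTRL. The median was then -0.24 for the 9 receptors, -0.23 for the other receptor tyrosine kinases, -0.091 for co-receptors and ligand processing, -0.20 for adaptors and signal transduction, -0.21 for negative regulators and -0.23 for ERK response genes. Without the filter on low values, the median of the other receptor tyrosine kinases was -0.00089, with 23 more kinases, those of a mean FPKM under 1, among the genes counted. Of the other settings, those with a pseudocount of 0.1 or 0.01, a mean FPKM of at least 5, a common median, a common upper quartile and a common sum moved none of these medians by 0.1. The depth per library is not known from the table, and the spread between libraries limits every comparison.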
